A study of Mus musculus with 22 samples.

Results

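Ribosome biogenesis genes encode the nucleolar machinery that transcribes ribosomal RNA and assembles it into ribosomal subunits. A list of 40 of these genes was followed by RNA-seq across 22 libraries of serially passaged mouse embryonic fibroblasts (MEFs), and 39 of the 40 could be matched to an identifier among the 55401 in the count table. The member without a matched identifier, Noc2l, was not analysed here. All 39 matched members passed the filter on low counts in every fit, the smallest count of any member in any library being 54. The members were chosen by name and function, not by how they moved in these samples, although earlier results of these data were known when the list was drawn up.

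MEFs of 2 breeding schemes were studied. With S6K1, 4 early WT libraries at passage 3 were set beside 4 late WT and 3 late S6K1 KO libraries at passage 8 (S6K1 set). With S6K1 and S6K2, 4 early WT libraries at passage 3 were set beside 4 late WT and 3 late DKO libraries at passage 8 (S6K1/S6K2 set). MEFs were prepared from whole mid-gestation embryos after removal of the head and viscera, with no cell sorting, and were grown to late passage as a model of replicative senescence, the lasting growth arrest of serially cultured cells. S6K1 and S6K2, encoded by Rps6kb1 and Rps6kb2, are kinases downstream of mTORC1. According to the study's methods, S6K1 WT and KO MEFs came from littermates, whereas the DKO came from crosses of S6K1 heterozygotes on an S6K2 KO background and its controls from WT mothers of earlier breeding stages, so that genotype and litter cannot be told apart in the S6K1/S6K2 set. Nothing in the labels ties a late library to an early one of the same embryo. The study reports that growth of S6K1 KO and DKO MEFs stopped sooner in serial passage than that of WT MEFs. The part of this difference in the genotype comparisons below was not tested.

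A ribosome begins in the nucleolus, where RNA polymerase I transcribes a long precursor RNA. Small nucleolar ribonucleoproteins (snoRNPs) guide its methylation (box C/D) and pseudouridylation (box H/ACA), and separate sets of assembly factors then cut, fold and package the small and the large subunit. The pathway is among the most costly of growing cells, is driven by MYC and mTORC1, and is known to be tied to proliferation and to senescence in cultured fibroblasts. The members were divided by role into RNA polymerase I transcription (6 genes), box C/D snoRNPs (4), box H/ACA snoRNPs (3), nucleolar phosphoproteins (3), small subunit processing (11) and large subunit processing (12 of 13 matched).

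The promoter sequences of the members were looked at for the canonical E-box CACGTG, the motif bound by MYC and related factors, which reads the same on both strands. Of the 39 matched members and Noc2l, 36 had at least 1 promoter in a RefSeq table of the GRCm38.p6 build. The motif lay in the 250 bases before the start in 3 of their 45 promoters (6.67%), against 6.02% of all 32851 promoters in the table. By gene, 3 of 36 members (8.33%) and 6.86% of 27025 genes held it. The stretches of 60 bases around each site are shown because these are the only members with the motif in this window, with the motif in capitals and the gene's own strand read 5′ to 3′. The sites lie 121 bases before the start of Imp4 (chr1:34439681-34439740, plus strand), 60 bases before that of Nop2 (chr6:125131796-125131855, plus strand), and 215 and 48 bases before that of Rrn3 (chr16:13780457-13780516 and chr16:13780624-13780683, plus strand).
Imp4: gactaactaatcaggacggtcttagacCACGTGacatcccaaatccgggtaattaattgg
Nop2: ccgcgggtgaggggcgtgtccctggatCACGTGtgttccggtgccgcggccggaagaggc
Rrn3, distal: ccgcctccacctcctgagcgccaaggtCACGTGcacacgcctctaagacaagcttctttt
Rrn3, proximal: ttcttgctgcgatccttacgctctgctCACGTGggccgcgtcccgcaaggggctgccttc
A match of letters is a description of these windows and was not tested as a binding site.

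Total counts per library ran from 10742454 to 17314832. Levels below are given as CPM, counts scaled to the size of each library with TMM factors. These factors were computed within each set, so CPM of different sets are scaled separately. Log2 fold changes come from edgeR's quasi-likelihood fit across all genes of a set, with p-values adjusted over all of them by the Benjamini-Hochberg method and a threshold of 0.05. The deleted genes matched the labels. Rps6kb1 was at 55.1 to 73.6 CPM in late WT and 13.9 to 22.6 in late KO, and at 66.2 to 90.8 in late WT and 21.0 to 28.9 in DKO. Rps6kb2 was at 11.5 to 17.0 CPM in late WT of the S6K1/S6K2 set and 0.50 to 1.39 in DKO. Both kinase genes also fell in late WT of the S6K1 set (−0.53 and −0.68, adjusted p 0.0498 and 0.0389). No member lies within 10 Mb of Rps6kb1 on chromosome 11, the nearest being Tsr1 at 11.6 Mb. Fibroblast markers, summed over 10 genes, were abundant in all libraries. They were at 28286.4 to 35648.5 CPM in early WT, 18933 to 25702.9 in late WT and 23623.6 to 25482.5 in late KO of the S6K1 set. In early WT, late WT and DKO of the S6K1/S6K2 set they were at 30615.1 to 39821.8, 20372.8 to 27473 and 25415.5 to 28534. Late WT thus lay below early WT in both sets. By gene, 6 of 10 in the S6K1 set and 7 in the other lay below 0 with passage, Col1a1 and Col1a2 being called lower in both. The summed level of 19 macrophage markers was 474 to 1107 CPM in early WT, 5269 to 10957 in late WT and 3538 to 4789 in late KO of the S6K1 set, and 612 to 2053, 7765 to 13264 and 936 to 3500 in early WT, late WT and DKO of the S6K1/S6K2 set. Of these markers Cd163 alone was at 0 in every library, and 18 were tested. In these bulk samples fewer cells of a type and less RNA per cell cannot be told apart. The part of the macrophage and fibroblast signals in the results below was not tested. Y-linked genes were expressed in 2 of 4 early WT, 1 of 4 late WT and 3 of 3 late KO libraries of the S6K1 set, and in 2 of 4, 3 of 4 and 1 of 3 of the S6K1/S6K2 set.

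The members as a whole took 0.326% to 0.476% of all counts in a library. The mean share was 0.451% in early WT, 0.425% in late WT and 0.393% in late KO of the S6K1 set. In early WT, late WT and DKO of the S6K1/S6K2 set the mean share was 0.384%, 0.391% and 0.351%. The members' score, the mean over 39 genes of log2 CPM centred on the gene's mean over the 11 libraries of its set, ran from −0.25 to 0.24. In the S6K1 set the score was 0.07, −0.02, 0.10 and 0.18 in early WT, 0.02, −0.13, −0.05 and 0.08 in late WT, and −0.01, −0.25 and −0.0018 in late KO. These groups overlapped, with differences of −0.10 for late against early WT and −0.07 for late KO against late WT. In the S6K1/S6K2 set it was −0.05, −0.10, 0.15 and 0.24 in early WT, 0.02, 0.03, 0.04 and 0.17 in late WT, and −0.12, −0.23 and −0.16 in DKO. Late and early WT overlapped here too (difference 0.0055), while all 3 DKO libraries lay below all 4 late WT libraries (difference −0.24). No test was made of the score, because the list was drawn up with earlier results known.

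**Figure D1:**
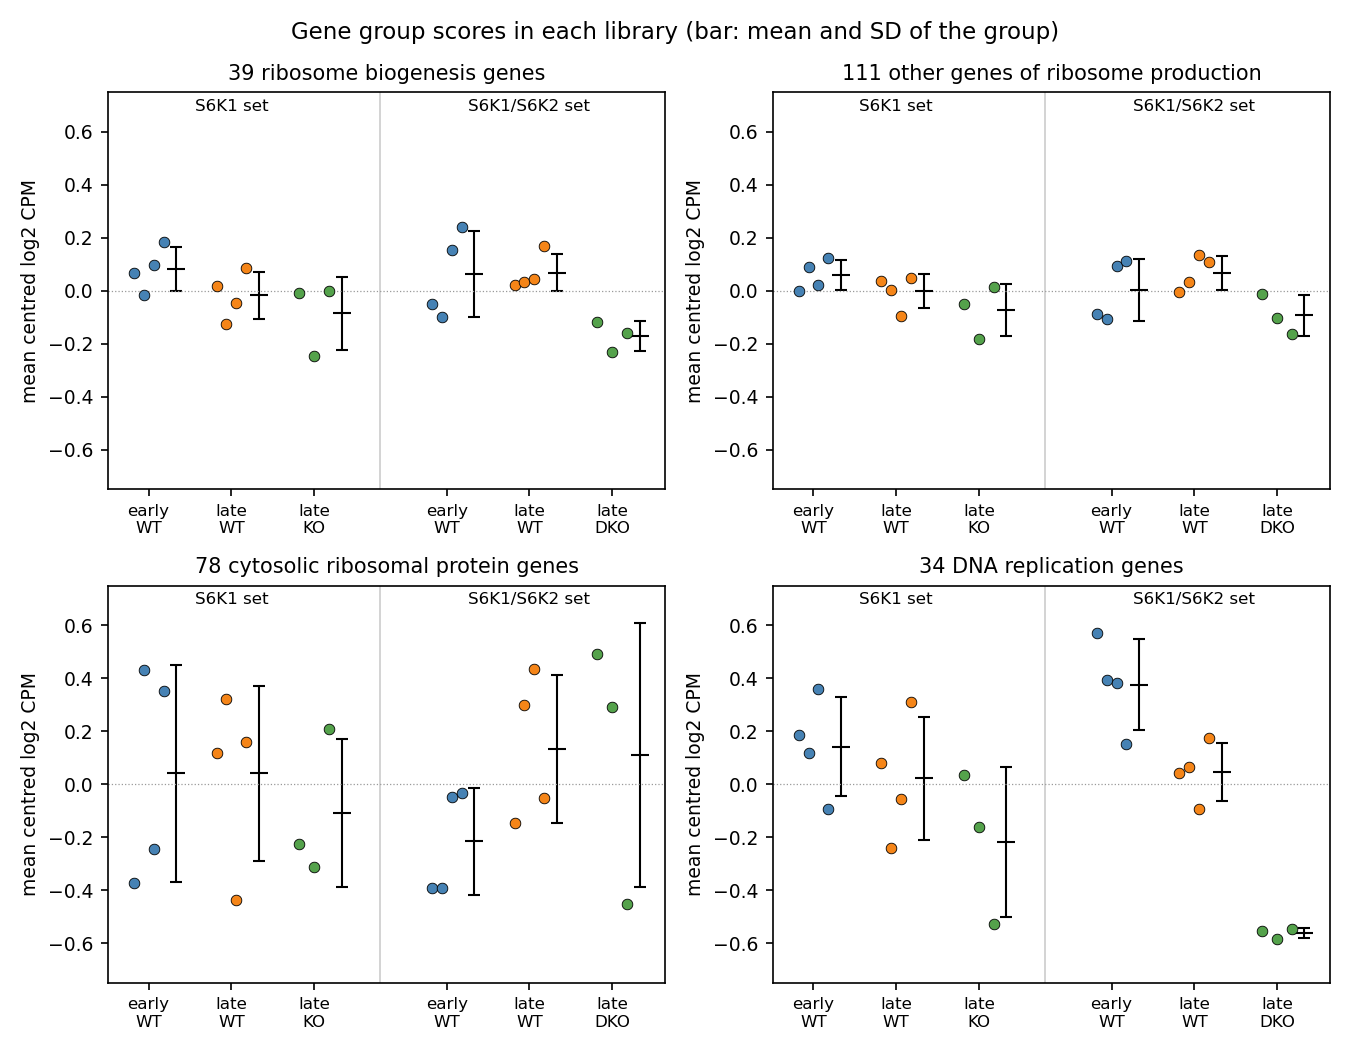
Mean centred log2 CPM of 39 ribosome biogenesis genes, 111 other genes of ribosome production, 78 cytosolic ribosomal protein genes and 34 DNA replication genes; each point is a library, the horizontal mark is the group mean and the bar its SD, with the S6K1 set on the left and the S6K1/S6K2 set on the right of each panel. The members span −0.25 to 0.24. DKO lies below late WT in the member panel, in the panel of other genes of ribosome production and, by more, in the DNA replication panel.

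Which members changed between early and late WT MEFs was asked first. In the S6K1 set 3 of 39 members fell, Rrp1b, Nop56 and Nop14, and none rose; of all 14132 genes tested 5.97% were called lower and 6.96% higher. The members' log2 fold changes had a median of −0.11 (−0.038 over all genes), 23 lay below 0 (53.5% of all genes), and at an unadjusted p under 0.05 there were 10 members (27.6% of all genes). DESeq2 called 6 members (18.8% of all genes), the same 3 and Gnl3 lower and Rrp9 and Nop16 higher. In edgeR each of the 3 calls was lost in some or all of the fits with 1 WT library left out. The log2 fold changes stayed below 0 in these fits. They were −0.40 to −0.35 for Nop14, −0.61 to −0.44 for Nop56 and −1.13 to −0.75 for Rrp1b. Nop14 missed the threshold whichever of the 8 WT libraries was left out (edgeR adjusted p 0.0584 to 0.0944). Nop56 missed it in 7 of 8 such fits (0.0525 to 0.0957) and passed without late WT replicate 4 (0.0384). Rrp1b missed it without late WT replicate 1, 2 or 3 (0.0511, 0.0543 and 0.0685) and passed in the other 5. None of the 39 passed with edgeR in the S6K1/S6K2 set, against 13.2% of 14365 genes tested, and 3 had an unadjusted p under 0.05 (31% of all genes). This number became 2 without early WT replicate 1 or 2 and 6 without early WT replicate 4. It was 5 without early WT replicate 3 or late WT replicate 1 or 4. DESeq2 called 2, Rrp1b and Polr1a, both lower (19.8% of all genes). Here 19 members lay below 0 (48.8% of all genes) and 20 above, with a median of 0.0033 (0.013 over all genes).

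No change of a member was called with loss of S6K1. None of 39 passed the edgeR test in late KO against late WT, nor in DESeq2, while 0.0425% and 1.88% of all genes passed. At an unadjusted p under 0.05 there were 3 members, all lower (5.69% of all genes were lower at this level): Ubtf, Utp20 and Rrp12. The median was −0.05 (−0.01 over all genes), 27 members lay below 0 (51.4% of all genes), and the 95% interval of 38 of 39 lay within 1 on the log2 scale on both sides of 0, as it did for 62.6% of all genes. The smallest adjusted p of a member was 0.313. The direction of the members rested on 1 library: without late KO replicate 2 the median was 0.03, with 16 below 0 and 23 above. Without late WT replicate 4 or late KO replicate 3, 1 member had an unadjusted p under 0.05, and with the level of Y-linked genes as a covariate 20 of 39 members changed sign.

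Loss of both kinases went with lower values of most members, though none passed on its own. In DKO against late WT 35 of 39 members lay below 0, against 50.7% of all genes, with a median of −0.23 (−0.0055 over all genes). No member passed the edgeR test (4.78% of all genes did), the smallest adjusted p being 0.0565, for Pes1, and DESeq2 called 1 member, Pes1 (8.4% of all genes). At an unadjusted p under 0.05 there were 11 members, all lower (11.1% of all genes were lower at this level). This number fell to 3 without DKO replicate 2, the library without which all genes called fell from 4.78% to 0.66%, to 5 without late WT replicate 4, and to 7 without late WT replicate 3, DKO replicate 1 or DKO replicate 3, while 32 to 37 members stayed below 0 with any 1 library left out. DKO and late WT did not overlap for 9 members, all lower in DKO: Rrn3, Rrp9, Nolc1, Wdr43, Rrp12, Pes1, Nop2, Ftsj3 and Rrp1b. Of all genes 10.6% were separated in this direction and 5.73% in the other. By role, the score of DKO lay below late WT without overlap for box C/D snoRNPs (difference −0.38), small subunit (−0.23) and large subunit processing (−0.24), and overlapped late WT for RNA polymerase I (−0.14), box H/ACA snoRNPs (−0.29) and nucleolar phosphoproteins (−0.19). The 4 members above 0 were Polr1c, Npm1, Wdr75 and Noc3l. Both genotype comparisons share their late WT libraries with the passage comparison of the same set. In the same libraries the macrophage markers were lower (17 of 18 called, median −2.44) and all 34 DNA replication genes lay below 0 (9 called, median −0.66), and their part in the members' values was not tested.

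**Figure D2:**
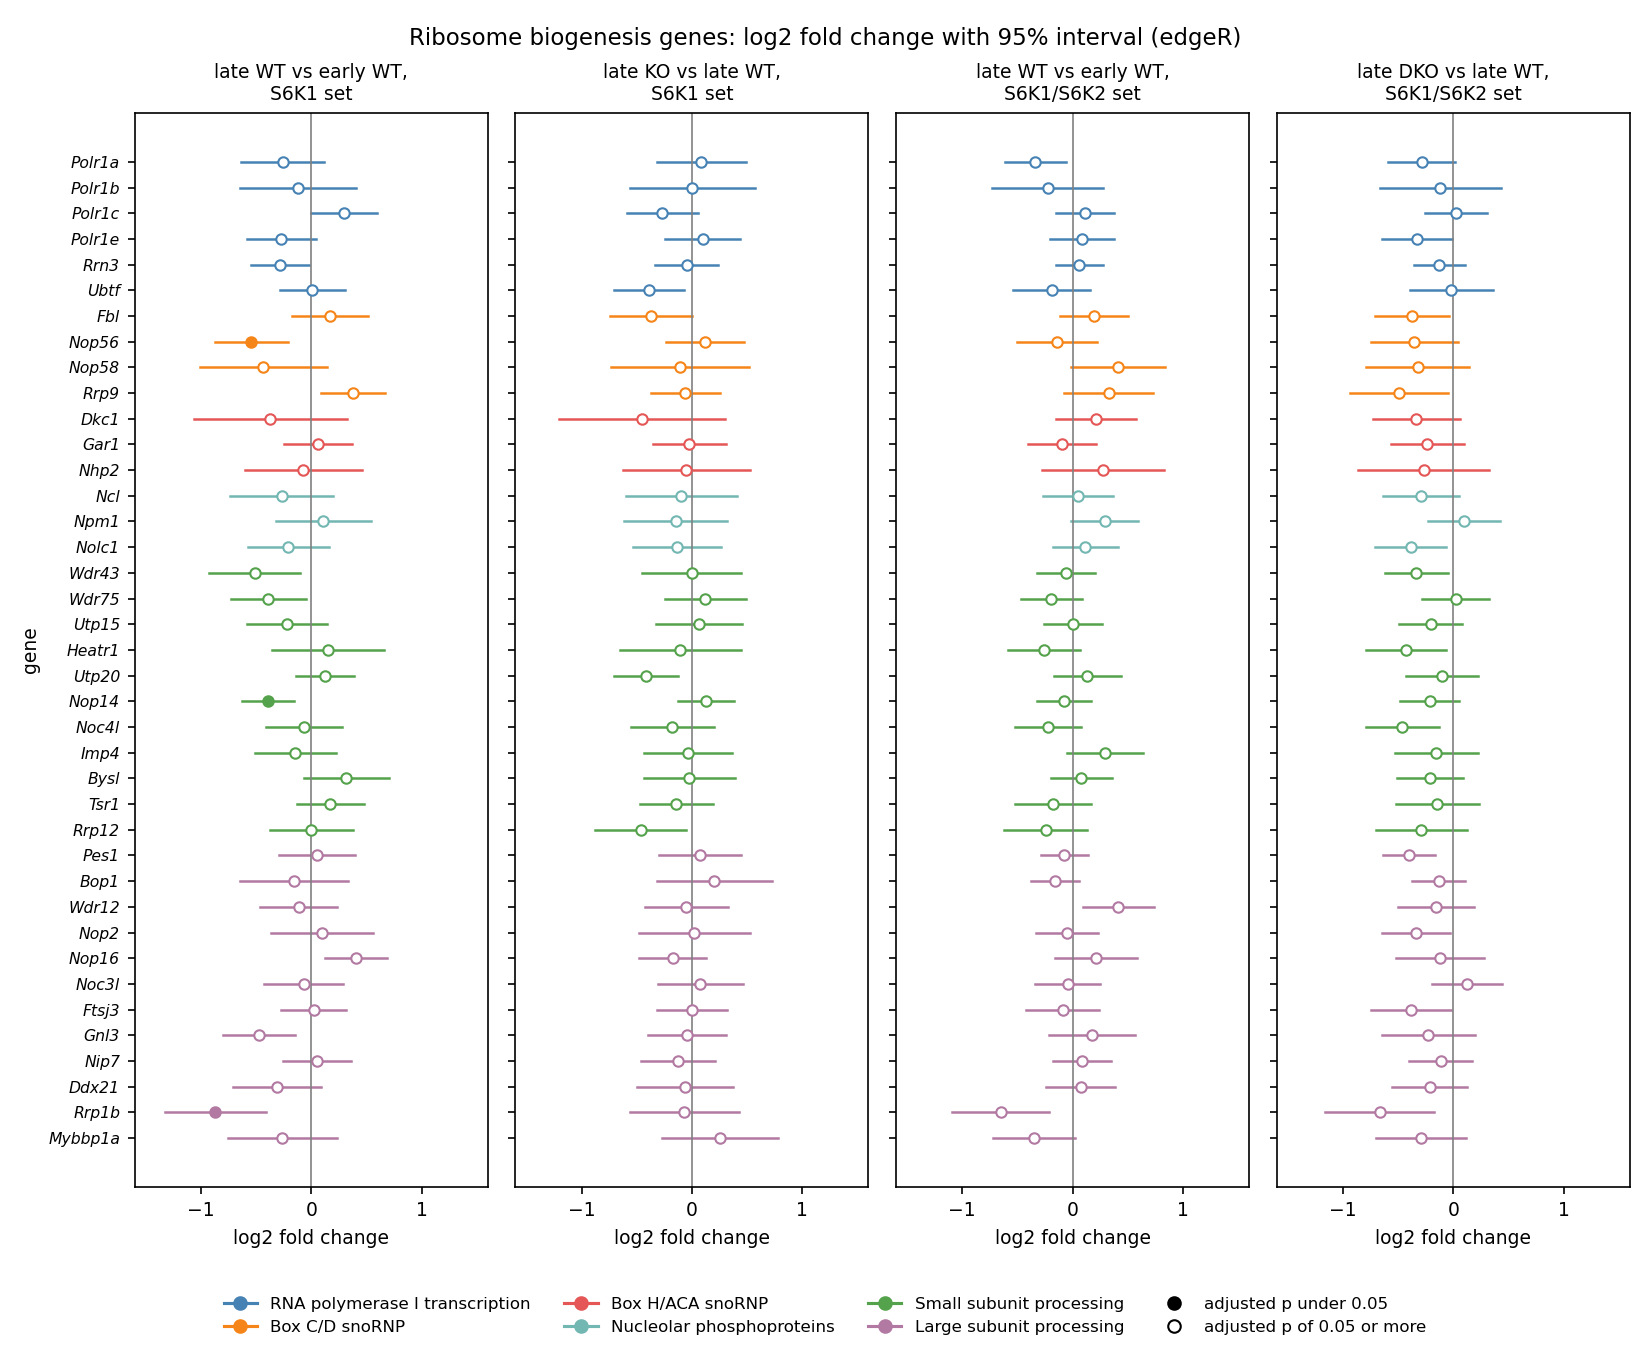
Log2 fold change (x axis) of the 39 members (rows, coloured by role) in the 4 comparisons, from edgeR; lines are 95% intervals and filled points have an adjusted p under 0.05. Only Nop56, Nop14 and Rrp1b in late against early WT of the S6K1 set are filled, and in DKO against late WT 35 of 39 points lie left of 0.

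RNA polymerase I comes first in the pathway. Its largest subunit, Polr1a, was at 27.9, 22.7, 31.0 and 28.3 CPM in early WT, 25.4, 17.7, 20.9 and 27.9 in late WT and 29.1, 22.9 and 21.2 in late KO of the S6K1 set. Across the S6K1/S6K2 set it lay at 25.9, 30.7, 28.0 and 32.2 in early WT, 22.4, 23.0, 20.5 and 26.5 in late WT and 18.1, 17.0 and 21.7 in DKO. Late KO and DKO overlapped late WT, and early and late WT of the S6K1/S6K2 set overlapped in a single late library, with a log2 fold change of −0.34 ± 0.13 (SE) and an edgeR adjusted p of 0.0957. DKO against late WT gave −0.28 (adjusted p 0.305), late against early WT of the S6K1 set −0.26 (0.361), and late KO 0.09 (0.900).

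Polr1b, the subunit next in size, was at 11.3, 5.84, 11.2 and 9.47 CPM in early WT, 8.26, 7.27, 10.5 and 8.81 in late WT and 10.99, 8.72 and 6.53 in late KO. For the S6K1/S6K2 set its values were 10.4, 11.7, 10.1 and 10.4 in early WT, 9.16, 8.48, 6.42 and 12.3 in late WT and 7.80, 5.76 and 11.4 in DKO. Its groups overlapped in all 4 comparisons, with log2 fold changes between −0.22 and 0.0043, and the sign of the late KO value turned with the scaling (−0.0072 with RLE factors). Polr1c, shared with RNA polymerase III, had values of 0.30, −0.27, 0.11 and 0.03 for late WT and late KO of the S6K1 set and late WT and DKO of the S6K1/S6K2 set, and Polr1e, a subunit particular to RNA polymerase I, −0.27, 0.10, 0.09 and −0.33, none past the threshold.

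Rrn3 carries RNA polymerase I to the ribosomal DNA promoter and is inactivated when growth signals fall. It was at 73.0, 76.7, 67.6 and 87.6 CPM in early WT, 65.1, 57.8, 66.9 and 60.8 in late WT and 61.1, 56.5 and 64.4 in late KO. The S6K1/S6K2 set had it at 59.2, 61.7, 71.7 and 61.0 in early WT, 65.2, 62.7, 72.5 and 64.3 in late WT and 59.3, 60.3 and 62.5 in DKO. Every late WT library of the S6K1 set lay below every early WT library (−0.28 ± 0.12, adjusted p 0.151), late KO overlapped late WT (−0.05, adjusted p 0.923), and DKO lay just below late WT (−0.12, adjusted p 0.585). Rrn3 had the smallest spread between libraries of a group of all members in the S6K1/S6K2 set, with an SD of 0.0960 in log2 CPM.

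Ubtf binds the ribosomal DNA itself. It was at 108, 120.3, 109.7 and 105 CPM in early WT, 98.9, 105, 117 and 125 in late WT and 87.8, 97.3 and 70.5 in late KO. In the S6K1/S6K2 set it was at 123, 126, 104 and 93.8, at 91.1, 99.9, 76.7 and 124, and at 90.3, 85.6 and 114 in the same order of groups, DKO last. All 3 late KO libraries lay below all late WT libraries (−0.39 ± 0.15, edgeR adjusted p 0.368), whereas DKO overlapped late WT (−0.02, adjusted p 0.974). The difference between the genotype effects of the sets was 0.38 (adjusted p 0.550).

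The box C/D proteins methylate ribosomal RNA. Nop56 (ENSMUSG00000027405.16; chr2:130274367-130279313 in GRCm38.p6), a core protein of these particles, was at 94.1, 93.5, 93.9 and 121 CPM in early WT of the S6K1 set, 70.9, 54.1, 72.7 and 78.2 in late WT, and 77.7, 64.6 and 82.9 in late KO. Each late library, WT or KO, lay below each early one. Nop56 fell by 0.54 ± 0.15 (SE) on the log2 scale in late WT (edgeR adjusted p 0.0350). It missed the threshold in 7 of the 8 fits with 1 WT library left out. Nop56 in late KO did not separate from late WT (0.12, adjusted p 0.835). Across the S6K1/S6K2 set it lay at 69.0, 59.6, 87.9 and 103 in early WT, 75.9, 60.2, 69.1 and 84.8 in late WT, and 57.7, 51.8 and 61.0 in DKO. Early and late WT overlapped there (−0.14, adjusted p 0.607), 1 late WT library fell within the DKO range (−0.35, adjusted p 0.332), and the difference between the passage effects of the sets was 0.37 (adjusted p 0.632).

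Fbl, the methyltransferase of the same particles, was at 45.2, 60.5, 52.9 and 57.9 CPM in early WT, 65.0, 56.0, 46.7 and 75.8 in late WT and 48.4, 45.8 and 47.2 in late KO. For the S6K1/S6K2 set its values were 38.5, 40.6, 50.2 and 57.0 in early WT, 43.5, 54.1, 57.3 and 58.7 in late WT and 43.5, 41.2 and 38.7 in DKO. Its passage values were above 0 in both sets (0.17 and 0.20) and its genotype values below 0 in both (−0.37 and −0.38), with adjusted p of 0.526, 0.370, 0.474 and 0.214. Rrp9, which binds the U3 snoRNA needed for cleavage of the precursor, was at 31.6 to 36.5 CPM in early WT and 38.3 to 47.6 in late WT of the S6K1 set, without overlap (0.38 ± 0.13, adjusted p 0.0852 with edgeR and 0.0302 with DESeq2), and at 34.5 to 49.0 in late WT and 23.9 to 31.7 in DKO (−0.49 ± 0.20, adjusted p 0.220). Nop58, the partner of Nop56, varied widely in early WT of the S6K1 set (167 to 366 CPM), and its passage value was −0.43 in that set (adjusted p 0.314) and 0.41 in the other (0.174), a difference of 0.81 with an adjusted p of 0.458.

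Box H/ACA particles turn uridine into pseudouridine, and Dkc1 is their catalytic subunit. It was at 40.04, 87.4, 47.4 and 111 CPM in early WT, 57.5, 51.0, 38.4 and 74.0 in late WT and 43.5, 28.7 and 48.9 in late KO. The S6K1/S6K2 set had it at 32.0, 31.5, 42.9 and 42.3 in early WT, 36.5, 40.9, 50.1 and 44.7 in late WT and 43.4, 31.1 and 28.0 in DKO. Dkc1 varied most between libraries of a group of all members in the S6K1 set, with an SD of 0.530 in log2 CPM, and its largest genotype value, −0.45 in late KO, had a 95% interval of −1.21 to 0.30. Gar1 and Nhp2, other core proteins of these particles, lay between −0.27 and 0.28 in the 4 comparisons. The score of the 3 genes was high in the same libraries as that of 78 ribosomal protein genes in some groups: in early WT replicates 2 and 4 of the S6K1 set it was 0.29 and 0.46, with 0.43 and 0.35 for the ribosomal proteins, and in late WT replicate 3 it was −0.41, with −0.44. The part of this spread in the members' comparisons was not tested.

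**Figure D3:**
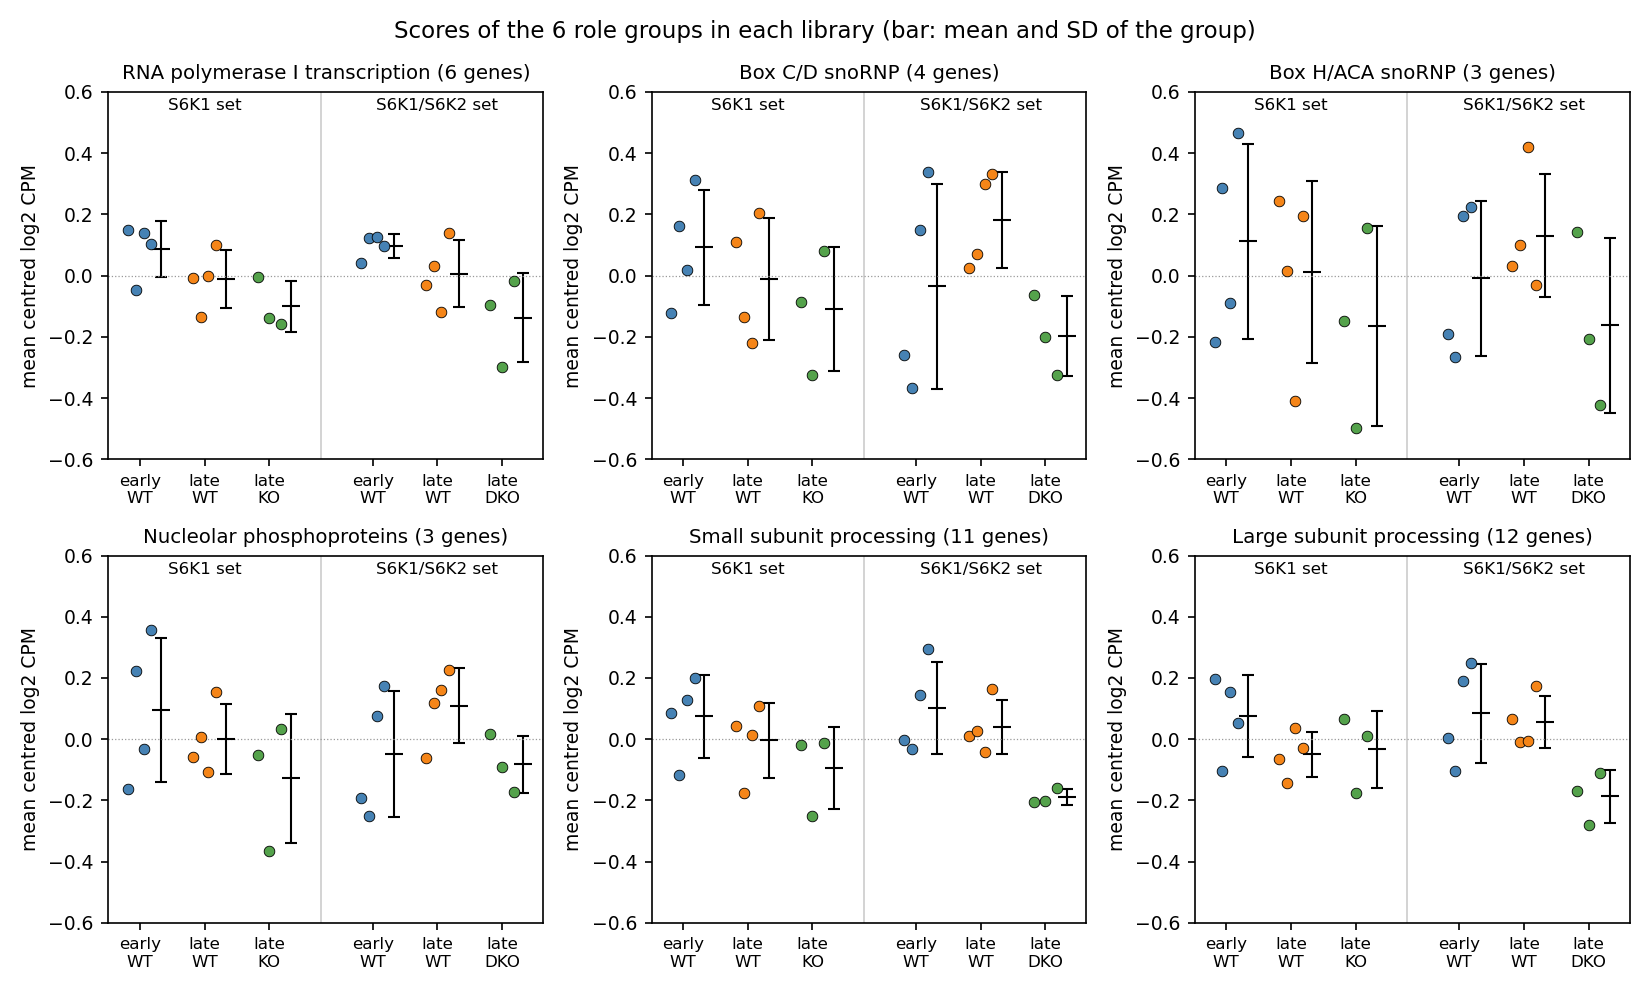
Mean centred log2 CPM of the members of each role in each library, with group means and SD as marks and bars; the y axis is the same in all 6 panels. DKO lies below late WT without overlap for the box C/D, small subunit and large subunit groups, and box H/ACA genes have the widest spread within each group except early WT of the S6K1/S6K2 set, where box C/D genes do.

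The nucleolar phosphoproteins Ncl, Npm1 and Nolc1 bind ribosomal RNA and its particles. Npm1 was at 958, 1465, 1104 and 915 CPM in early WT, 982, 1318, 1093 and 1397 in late WT and 1119.6, 901 and 1220.4 in late KO. In the S6K1/S6K2 set it was at 799.8, 854, 1048 and 979.8 in early WT, 1002, 1227, 1129 and 1142 in late WT and 1379.5, 1201 and 1033 in DKO. Npm1 was one of the few members above 0 in DKO (0.10, 95% interval −0.23 to 0.43), and its passage value there was 0.29 (adjusted p 0.180). Npm1 has processed pseudogenes, among which short reads can be shared, so its counts are less certain than those of single-copy genes.

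Ncl was at 764, 1048, 759 and 1449 CPM in early WT, 769, 819.7, 804 and 949.7 in late WT and 829.7, 654 and 863 in late KO. Across the S6K1/S6K2 set it lay at 672, 591, 756 and 832 in early WT, 610.3, 739, 742 and 855 in late WT and 641, 531 and 637 in DKO. The groups overlapped in each comparison, the values being −0.27, −0.10, 0.05 and −0.29 for late WT and late KO of the S6K1 set and late WT and DKO of the other (adjusted p 0.459, 0.915, 0.856 and 0.371). Nolc1, a chaperone of snoRNPs, was separated in DKO against late WT (−0.38 ± 0.15, adjusted p 0.184).

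Among the 11 small subunit genes, only Nop14 (ENSMUSG00000036693.12, chr5:34638536-34660148), a component of the processome that cleaves the precursor, was called with passage in the S6K1 set. It was at 69.7, 73.8, 72.4 and 78.0 CPM in early WT, 50.9, 56.4, 60.7 and 56.0 in late WT, and 61.9, 57.0 and 64.7 in late KO. Early WT lay above both late groups. Nop14 fell by 0.39 ± 0.11 on the log2 scale in late WT (edgeR adjusted p 0.0359), with late KO at 0.13 against late WT (adjusted p 0.749). The passage call of Nop14 was lost in all 8 fits with 1 WT library left out. It was also lost with total counts, no filter or only the 2 groups in the fit. For the S6K1/S6K2 set its values were 59.5, 61.8, 69.6 and 68.8 in early WT, 62.2, 60.4, 55.5 and 68.3 in late WT, and 56.5, 45.0 and 58.1 in DKO, with −0.08 for passage (adjusted p 0.683) and −0.21 for genotype (0.405). The spread of Nop14 between libraries of a group was the smallest of all members in the S6K1 set, with an SD of 0.0887 in log2 CPM.

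Heatr1 belongs to the group of small subunit factors that join the precursor as it is transcribed, together with Wdr43, Wdr75 and Utp15. It was at 23.8, 12.9, 26.7 and 19.5 CPM in early WT, 22.8, 17.0, 27.5 and 25.01 in late WT and 27.0, 17.4 and 20.03 in late KO. The S6K1/S6K2 set had it at 28.2, 27.8, 26.2 and 29.4 in early WT, 23.2, 23.1, 17.3 and 29.9 in late WT and 15.7, 17.7 and 18.8 in DKO. One late WT library lay within the DKO range and the other 3 above it (−0.43 ± 0.17, adjusted p 0.186). Wdr43 and Wdr75 had passage values of −0.51 and −0.39 in the S6K1 set (adjusted p 0.0995 and 0.130) against −0.06 and −0.19 in the other, and in DKO −0.33 and 0.02.

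Utp20, a scaffold of the processome, was at 43.0, 38.0, 48.7 and 50.5 CPM in early WT, 48.4, 49.7, 49.8 and 48.5 in late WT and 38.1, 33.7 and 38.7 in late KO. In the S6K1/S6K2 set it was at 41.1, 40.9, 43.1 and 57.4 in early WT, 46.8, 51.7, 45.9 and 56.0 in late WT and 46.3, 39.7 and 54.1 in DKO. Late KO was separated from late WT (−0.41 ± 0.13, the smallest adjusted p of a member in this comparison, 0.313), while DKO overlapped it (−0.10, 0.789), a difference of 0.33 between the sets (adjusted p 0.560). Rrp12, which acts in export of the subunits, was at 20.1 to 27.4 CPM in late WT and 17.0 to 17.9 in late KO (−0.47 ± 0.19, adjusted p 0.407), the lowest value of that comparison, and at 16.5 to 19.0 in late WT and 13.4 to 15.4 in DKO (−0.29, adjusted p 0.463). Noc4l lay at −0.23 for passage in the S6K1/S6K2 set, where early and late WT were separated (8.5% of all genes were, in this direction), and at −0.46 in DKO (adjusted p 0.292 and 0.120). The remaining small subunit members, Utp15, Imp4, Bysl and Tsr1, lay between −0.22 and 0.32 in the 4 comparisons.

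The large subunit group held the member with the largest change. Rrp1b (ENSMUSG00000058392.13; chr17:32036162-32062865), a nucleolar protein related to yeast RRP1, was at 21.2, 19.9, 18.2 and 24.6 CPM in early WT of the S6K1 set, 9.03, 9.92, 9.67 and 17.4 in late WT, and 10.9, 11.2 and 10.8 in late KO. All late libraries lay below all early ones although late WT replicate 4 stood apart from the others, and Rrp1b fell by 0.87 ± 0.21 on the log2 scale in late WT (edgeR adjusted p 0.0177). Without that library the value was −1.13 (adjusted p 0.00118), while without late WT replicate 1, 2 or 3 Rrp1b missed the threshold. Across the S6K1/S6K2 set it lay at 19.5, 22.2, 16.9 and 13.2 in early WT, 12.0, 9.62, 10.3 and 13.7 in late WT, and 7.20, 5.36 and 8.91 in DKO. Passage gave −0.65 ± 0.20 here (adjusted p 0.0532), just short of the threshold, which it passed without early WT replicate 4 (−0.79, 0.0214), without late WT replicate 4 (−0.76, 0.0419) and with DESeq2 (0.0161). DKO lay below late WT in all 3 libraries (−0.67 ± 0.23, adjusted p 0.132), whereas late KO was at −0.07 (adjusted p 0.941). The difference between the genotype effects was −0.59 (adjusted p 0.524), so that the sets were not shown to differ.

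**Figure D4:**
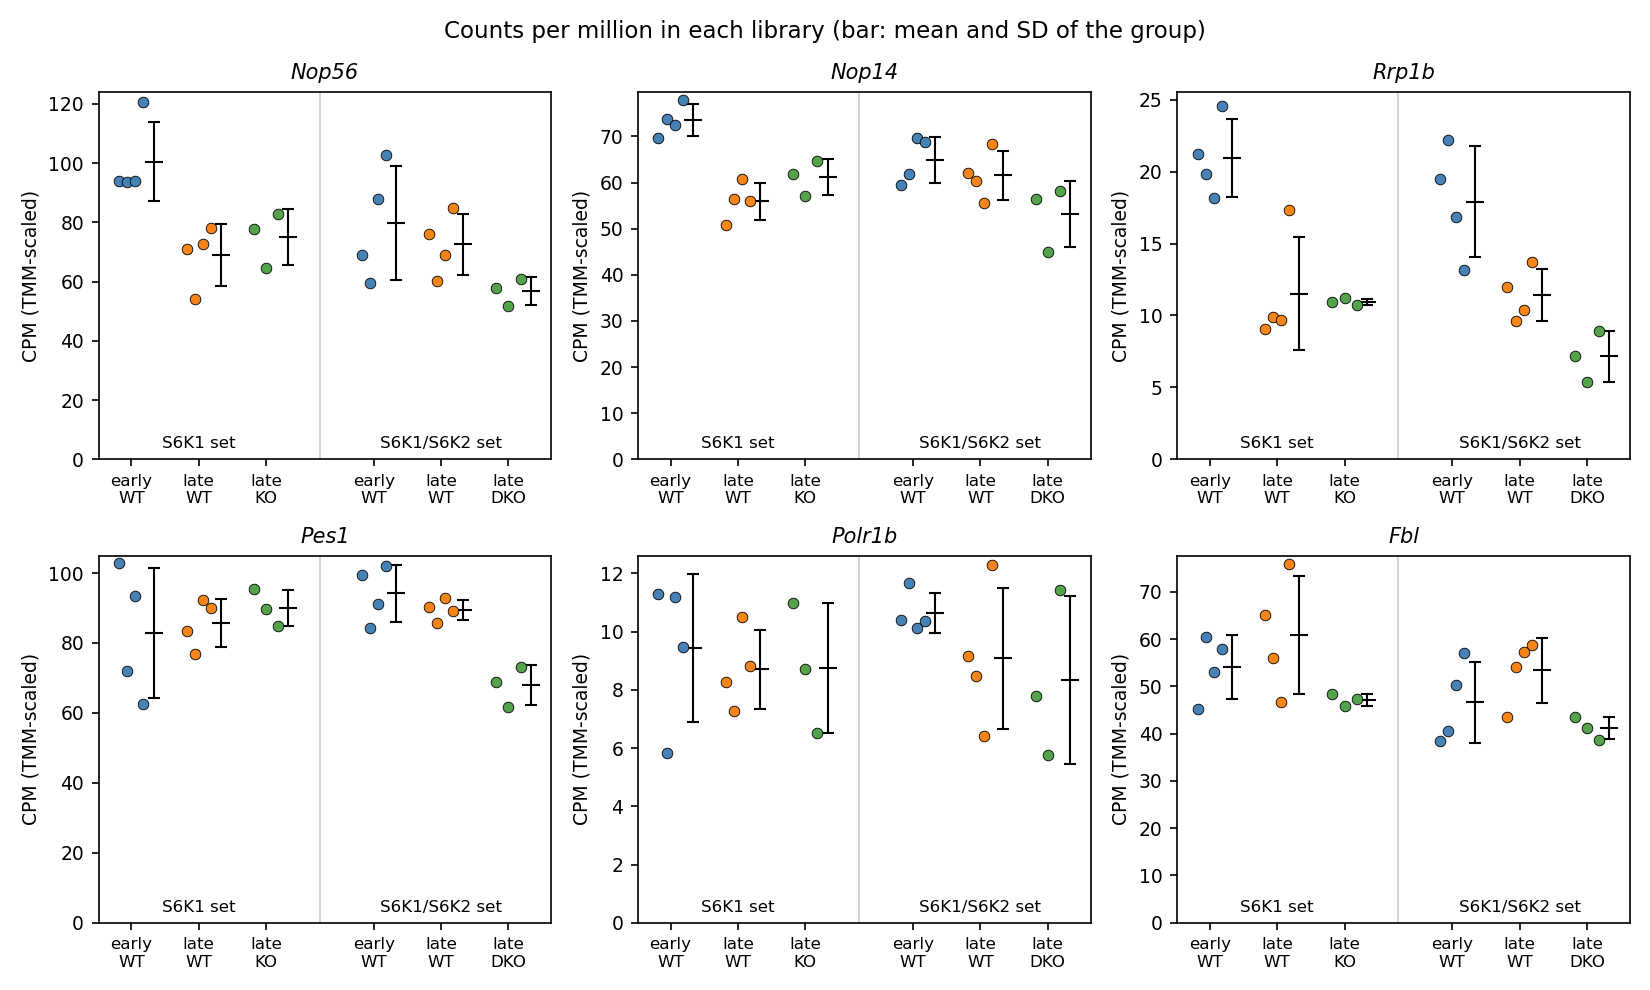
CPM of 6 members in each library (points), with group means and SD (marks and bars), the S6K1 set on the left and the S6K1/S6K2 set on the right; each y axis starts at 0. Nop56, Nop14 and Rrp1b are the members called lower in late WT of the S6K1 set. Pes1 lies at 61.8 to 73.1 in DKO against 85.7 to 92.8 in late WT. The groups of Polr1b and Fbl overlap with passage in both sets.

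Pes1, Bop1 and Wdr12 form the complex (PeBoW) that matures large subunit RNA. Pes1 (ENSMUSG00000020430.12; chr11:3963975-3980004) was at 103, 72.1, 93.4 and 62.6 CPM in early WT, 83.5, 77.0, 92.4 and 90.1 in late WT and 95.3, 89.8 and 84.9 in late KO. For the S6K1/S6K2 set its values were 99.5, 84.2, 91.1 and 102 in early WT, 90.2, 85.7, 92.8 and 89.2 in late WT, and 68.7, 61.8 and 73.1 in DKO. The DKO libraries lay below every early and late WT library of their set, at −0.40 ± 0.11 against late WT with an edgeR adjusted p of 0.0565. Pes1 passed the threshold in DESeq2 (0.0109) and with the level of Y-linked genes as a covariate (0.0377). In edgeR no member passed with the other scalings, no filter, or 2 or 6 groups in the fit. The smallest adjusted p of any member in these fits ran from 0.0668 to 0.172. None passed with any 1 library left out. In late KO Pes1 was at 0.07 (adjusted p 0.915), and the difference between the genotype effects was −0.46 (95% interval −0.86 to −0.05, adjusted p 0.419).

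Bop1 was at 80.7, 42.5, 65.8 and 51.2 CPM in early WT, 62.9, 39.2, 69.8 and 43.6 in late WT and 65.1, 60.1 and 60.9 in late KO. The S6K1/S6K2 set had it at 58.9, 55.2, 58.1 and 58.4 in early WT, 56.4, 45.7, 48.6 and 55.7 in late WT and 46.4, 43.6 and 51.3 in DKO. Its values overlapped in each comparison, at −0.16, 0.20, −0.16 and −0.13 (adjusted p 0.700, 0.807, 0.307 and 0.587), although its partner Pes1 was separated in DKO. Wdr12 had the highest passage value of the S6K1/S6K2 set, from 27.3 to 42.3 CPM in early WT to 43.8 to 53.7 in late WT (0.42 ± 0.15, adjusted p 0.0781), the only member separated upward there (11.6% of all genes were), and lay at −0.16 in DKO.

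Gnl3 (nucleostemin), a GTPase abundant in proliferating cells, was at 102, 126, 109.7 and 145 CPM in early WT, 70.9, 90.1, 92.7 and 92.7 in late WT and 93.5, 73.2 and 84.8 in late KO. Its S6K1/S6K2 set values were 73.6, 63.5, 108 and 115 in early WT, 98.1, 102, 91.7 and 115 in late WT and 90.8, 74.4 and 95.8 in DKO. Early and late WT were separated in the S6K1 set (−0.48 ± 0.15, adjusted p 0.0565 with edgeR and 0.0317 with DESeq2) and overlapped in the other (0.18, 0.538). The difference of 0.62 had the smallest adjusted p of a member between the passage effects (0.379). Nop16, an assembly factor, had the highest passage value of the S6K1 set (0.40 ± 0.13, adjusted p 0.0596), from 40.3 to 45.7 CPM in early WT to 48.6 to 63.3 in late WT. With RLE scaling and with DESeq2 it passed the threshold (0.0487 and 0.0128).

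Mybbp1a, a nucleolar protein that also binds transcription factors, had the highest value of late KO (0.26, adjusted p 0.754), the lowest but Rrp1b of passage in the S6K1/S6K2 set (−0.35, 0.190), and −0.29 in DKO. Noc3l had the highest value of DKO (0.12, adjusted p 0.725). Nop2 and Ftsj3, methyltransferases of ribosomal RNA, were separated in DKO (−0.33 and −0.38, adjusted p 0.225 and 0.243) and lay between −0.09 and 0.10 in the other comparisons. Nip7 and Ddx21, an assembly factor and an RNA helicase, lay between −0.31 and 0.09.

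Taking separation of the libraries as the measure, early and late WT of the S6K1 set did not overlap for 6 members that were lower in late WT (Rrn3, Nop56, Wdr75, Nop14, Gnl3 and Rrp1b) and 2 that were higher (Rrp9 and Nop16), while 9.18% and 9.19% of all genes were separated in these directions. In late KO 3 members were separated downward and none upward (6.28% and 6.97% of all genes). Neither interaction, the difference of the passage effects or of the genotype effects between the sets, called a member in edgeR or in DESeq2. Of 14886 genes tested edgeR called 0.712% and 0.00672%, and DESeq2 1.49% and 0.437%. At an unadjusted p under 0.05 there were 4 members for passage, all higher in the S6K1/S6K2 set (Gnl3, Nop58, Rrn3 and Wdr12), and 1 for genotype (Pes1), against 9.55% and 10.9% of all genes. Leaving out 1 library gave 1 to 6 such members for passage (1 without early WT replicate 4 of the S6K1 set or early WT replicate 1 of the other) and 0 to 4 for genotype. Heatr1 and Tsr1 had the lowest passage interactions (−0.44 and −0.38, adjusted p 0.646 and 0.592). For genotype Mybbp1a, at −0.54 (0.561), stood next to Rrp1b.

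The other genes of ribosome production, 111 of 114 listed genes being matched and tested, were described in the same way. In late WT of the S6K1 set 6 fell and 2 rose (5.97% and 6.96% of all genes), with a median of −0.046 (−0.038 over all genes). The strongest call was Nvl, an ATPase of large subunit assembly, at 47.9, 49.6, 41.4 and 42.5 CPM in early WT and 28.7, 26.5, 24.9 and 28.2 in late WT, which fell by 0.74 ± 0.13 (edgeR adjusted p 0.00277). Sdad1 (−0.69, 0.0110) and Utp14a (−0.59, 0.0114), of large and small subunit processing, followed. The 2 that rose, Exosc5 (0.51, 0.0309) and Exosc7 (0.66, 0.0115), are subunits of the exosome that trims precursor RNA and were picked out after their values were seen. Sdad1 fell again in the S6K1/S6K2 set, from 31.2 to 36.4 CPM in early WT to 21.0 to 27.5 in late WT (−0.56, adjusted p 0.0148), and Nop10, a core protein of box H/ACA particles, rose (0.73, 0.0407). No other gene of the list was called there, against 13.2% of all genes. No gene of this list passed in late KO with edgeR (0.0425% of all genes did). There 7 of 111 had an unadjusted p under 0.05, against 1499 of all 14132 genes. In DKO 92 of 111 lay below 0 (50.7% of all genes), with a median of −0.17 (−0.0055 over all genes). The score of the list lay below late WT without overlap (difference −0.16). Of the list 1 passed (4.78% of all genes did): Mphosph6, a cofactor of the exosome, at 30.1, 33.3, 36.0 and 43.2 CPM in late WT and 25.2, 23.2 and 18.7 in DKO (−0.67, adjusted p 0.0467).

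Myc, the transcription factor known to drive the pathway, was at 30.05 to 74.6 CPM in early WT, 35.4 to 49.9 in late WT and 32.3 to 56.5 in late KO of the S6K1 set. Across the S6K1/S6K2 set it lay at 37.4 to 60.4, 49.4 to 57.6 and, in DKO, 31.9 to 49.5. Its groups overlapped throughout, with values of −0.35, 0.19, 0.11 and −0.36 for late WT, late KO, late WT and DKO (edgeR adjusted p 0.429, 0.853, 0.694 and 0.322). Of the 11 genes of the MYC network tested, Mga fell in late WT of the S6K1 set (−0.69, adjusted p 0.0449) and Mxd3 in late WT of the S6K1/S6K2 set (−0.92, 0.0308). Both encode partners of MAX.

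In some comparisons genes of the products and processes the members are tied to had other medians than the members. Cytosolic ribosomal protein genes, whose products the pathway assembles, had a median of 0.40 in late WT of the S6K1/S6K2 set, with 75 of 78 above 0 and 1 called, where the members' median was 0.0033. In DKO the ribosomal protein genes had a median of 0.00010, with 39 of 78 below 0 and none called or at an unadjusted p under 0.05 in edgeR, beside −0.23 for the members. The ribosomal protein score was 0.49, 0.29 and −0.45 in the DKO libraries and −0.15 to 0.44 in late WT. This median therefore averages over libraries that differed widely. The DNA replication genes had a median of −0.66 in DKO, with Cdt1 at −1.40 (adjusted p 0.00385) and Pcna at −0.68 (0.0169), and their score was −0.55 to −0.58 in the 3 DKO libraries against −0.10 to 0.17 in late WT. In late KO the DNA replication genes had a median of −0.25, with 30 of 34 below 0 and none called (4 at an unadjusted p under 0.05). The differences between lists were not tested.

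Most members varied less between libraries of a group than the median gene tested, in a comparison not matched on level of expression. Within groups the SD of log2 CPM had a median over members of 0.219 in the S6K1 set and 0.198 in the S6K1/S6K2 set, against 0.338 and 0.287 over all genes, and 32 and 34 of 39 members lay below the median gene. Long and short members had similar medians in DKO: the 19 with the longest transcripts had −0.21 and the 19 shortest −0.27. By library they differed, the score of the short members less that of the long being 0.17, 0.19 and −0.18 in DKO. In late WT the medians of long and short members stood at −0.21 and 0.02 in the S6K1 set and at −0.06 and 0.11 in the S6K1/S6K2 set. For 12 members exons overlap a gene on the opposite strand in an mm9 annotation, among them Tsr1 with Srr (1240 shared bases), Bysl with Ccnd3 (353), Nop14 with Gm15522 (144) and Pes1 with 4930556J24Rik (138). The strand setting of the authors' counting is not given in the sources used here, so reads of such pairs may not be separated, although Gm15522 and 4930556J24Rik had only 37 counts each over the 22 libraries.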

How the data were processed

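Stranded mRNA libraries of MEFs were sequenced by the authors, and the deposited values are raw counts per gene identifier, not normalized, for 22 libraries in 6 groups taken from the labels. The study's methods name mm9, TopHat and HTSeq, whereas the submitters' processing notes name mm10, STAR 2.7.1a, CASAVA and DESeq2 1.28.1. Of the identifiers 22812 are absent from an mm9 annotation (GENCODE vM1), so coordinates are given in GRCm38.p6 from RefSeq. Symbols were found for 32589 identifiers (96.98% of counts). Genes were filtered with filterByExpr, scaled by TMM and tested in R 4.3.3 with edgeR 4.0.16 (robust quasi-likelihood, 1 fit per set with its 3 groups, 1 fit of 22 libraries for interactions); log2 CPM used a prior count of 2. DESeq2 1.42.0 was an alternative, with other scalings, no filter, a Y-linked covariate and libraries left out. The script was tested on simulated data.

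The 30 pairs of libraries of a group differed by more than sampling noise (chi-square per degree of freedom 20.6 to 265.7). Replicate numbers follow accession order. The study describes its serially passaged MEF replicates as derived from different embryos; the labels do not say which embryo each library came from. The members and gene lists were chosen with earlier results of these data known. Values in every library are given for 14 members fixed by role and for up to 3 called members per comparison, and the 2 highest and 2 lowest values of each comparison are named, as are up to 3 called genes of the other list.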

Additional observations from a re-analysis of the deposited data

Results flagged for a closer look

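In 9 of 124 groups of 4 libraries 1 library lay apart from the other 3 by Dixon's criterion, which chance alone gives in about 1 in 20 groups. In the S6K1 set these were Nop56 in early WT replicate 4 (120.5 CPM, others 93.5 to 94.1), Tsr1 in early WT replicate 2 (35.9, others 46.5 to 48.1), Gnl3 in late WT replicate 1 (70.9, others 90.1 to 92.7) and Rrp1b in late WT replicate 4 (17.4, others 9.03 to 9.92). In the S6K1/S6K2 set they were Polr1b in early WT replicate 2 (11.7, others 10.1 to 10.4) and Utp20 in early WT replicate 4 (57.4, others 40.9 to 43.1). Late WT replicate 4 of that set stood apart for Tsr1 (47.7, others 36.7 to 37.2), Nop16 (47.6, others 49.9 to 50.1) and the score of the 39 members (0.170, others 0.019 to 0.044). Without that library the members' score in DKO stayed below late WT (difference −0.20).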

How the results depend on the processing

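In late against early WT of the S6K1 set the number of members called higher, 0, became 1 with RLE scaling (12.7% of all genes called, either direction) and 2 with DESeq2 (18.8%). The number called lower, 3, became 1 with no filter (5.68%) and 0 with only the 2 groups in the fit (9.69%). With the Y-linked covariate it became 7 (23.3%, with Nop58, Wdr43, Wdr75 and Gnl3 added). It became 4 with DESeq2 (18.8%, Gnl3 added) or 6 groups in the fit (17.2%, Wdr43 added) and 2 with total counts (11.2%, Nop14 lost). Leaving out 1 library gave 0 to 1 higher and 0 to 2 lower (8.72% to 12.5% of all genes called). In the S6K1/S6K2 set the number called lower, 0, became 1 with RLE (13.5% of all genes called, either direction), upper quartile scaling (13.8%) or no filter (5.87%). It also became 1 with 2 groups (13.2%) or 6 groups in the fit (13.5%), and 2 with DESeq2 (19.8%). Leaving out 1 library gave 0 to 1 higher and 0 to 1 lower (6.21% to 15.7% of all genes called). For DKO 1 member was called lower with DESeq2 (8.4% of all genes called, either direction) and with the Y-linked covariate (3.86%). Without any 1 library 0 were called (0.66% to 5.49% of all genes). The other alternatives left these counts as they were, and the cause was not tested. Score differences ranged without 1 library from −0.14 to −0.053 (late WT) and −0.12 to −0.00072 (late KO) in the S6K1 set, and from −0.062 to 0.047 (late WT) and −0.26 to −0.18 (DKO) in the other.

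Members whose log2 fold change turned sign were uncalled in both fits. Over all 39, the Y-linked covariate turned 20 in late KO, 4 in late WT of the S6K1 set and none in the other set, and each other setting of the fit turned 0 to 3 per comparison. Leaving out 1 library turned 1 to 13 in late KO (13 without late KO replicate 2), 1 to 5 and 0 to 3 in late WT, and 0 to 4 in DKO. Values follow for the members named by the rule for the comparison. With the Y-linked covariate they were Polr1b 0.043 and Bop1 0.031 for late WT of the S6K1 set, and Polr1b −0.36, Dkc1 0.27, Ncl 0.20, Npm1 0.012, Pes1 −0.20, Bop1 −0.23, Gnl3 0.046 and Mybbp1a −0.22 for late KO, where Y-linked expression was in 3 of 3 KO and 1 of 4 WT libraries, so that it and genotype are nearly confounded. Polr1b in late KO was −0.0072 with RLE, −0.0096 with total counts, −0.0078 with DESeq2 and −0.0094 with 2 groups. With total counts Rrn3 was −0.019 and Ncl −0.029 in late WT of the S6K1/S6K2 set, and Ubtf in DKO was 0.0031 with RLE, 0.0020 with upper quartile scaling and 0.0034 with DESeq2.

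Values of the same members that turned sign without 1 library ranged, for late WT of the S6K1 set, from −0.29 to 0.013 (Polr1b), −0.048 to 0.065 (Ubtf), −0.020 to 0.33 (Heatr1), −0.064 to 0.20 (Pes1) and −0.29 to 0.051 (Bop1). For late KO they ranged from −0.073 to 0.19 (Polr1a), −0.21 to 0.18 (Polr1b), −0.17 to 0.0047 (Ncl), −0.32 to 0.015 (Heatr1) and −0.15 to 0.028 (Gnl3), for late WT of the S6K1/S6K2 set from −0.046 to 0.12 (Ncl), and for DKO from −0.42 to 0.11 (Polr1b), −0.15 to 0.12 (Ubtf), −0.0048 to 0.20 (Npm1), −0.22 to 0.024 (Utp20) and −0.0055 to 0.22 (Noc3l). No paired analysis was possible because the labels give no replicate numbers that libraries of different groups share. With 3 or 4 libraries a group, the median SE of a member's log2 fold change was 0.14 to 0.18 over the 4 comparisons.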
